A study of Mus musculus with 6 samples.

Results

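Coagulation and fibrinolysis genes encode the proteins that form a blood clot, hold it in check and dissolve it. A list of 34 gene names was matched by symbol to the 40481 genes of the table of all pools, which gave 33 genes, each on 1 row. The remaining name, Klkb1 (plasma prekallikrein), matched no symbol and was not analysed here. By their main source in liver as given in textbooks, 23 of the 33 are made by hepatocytes (13 clotting proteins and 10 inhibitors or fibrinolytic proteins), 6 by endothelial cells, 3 by macrophages and 1, tissue factor (F3), by stromal cells.

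In coagulation, tissue factor or a charged surface starts a chain of protease activations that ends in thrombin, which cuts fibrinogen into fibrin. Several proteases and their regulators need vitamin K for a modification of their glutamate residues. Antithrombin, heparin cofactor II and the thrombomodulin and protein C system restrain thrombin, and plasmin, released from plasminogen by tissue-type or urokinase-type activator, dissolves fibrin. Hepatocytes secrete most of these proteins into plasma, whereas the plasminogen activators, thrombomodulin and von Willebrand factor are made largely by other cells.

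Liver RNA was sequenced from 3 control and 3 Mttp-IKO pools of 3 to 4 male mice, so n counts pools, and mice would vary more than pools do. The labels give 12 livers for the pools. All mice were C57BL/6 and carried floxed Mttp with a Villin-CreERT2 transgene, in which the Villin promoter drives a tamoxifen-activated Cre in the intestinal epithelium. Mttp-IKO mice received tamoxifen for 5 days and so lost Mttp, the microsomal triglyceride transfer protein, in the intestine, while controls received vehicle by the study's methods (the labels call them wild type), so tamoxifen and the deletion cannot be told apart. Both groups were then fed a methionine- and choline-deficient (MCD) diet for 3 weeks from 3 weeks after injection, at 12 to 16 weeks of age, and were fasted for 4 h by the labels. There were no mice on another diet in these pools, so the comparison is of genotypes within the MCD diet.

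The pools held 25271585 to 36238734 reads on genes, and a count of 0 allows up to 0.0828 to 0.119 counts per 1000000 reads (CPM), a limit that covers counting error only. Mttp, which is deleted in the intestine only, does not check the labels in liver, where control 1, 2 and 3 held 90.4, 186 and 175 CPM of it and Mttp-IKO 1, 2 and 3 held 145, 129 and 161 CPM. Markers of the labelled tissue were present, with 8 hepatocyte markers summing to 55536 to 90952 CPM in control and 110861 to 163833 CPM in Mttp-IKO pools. Most of this sum was Alb in every pool. Control 2 held 553 CPM of 5 striated muscle markers against 66.5 CPM in control 1 and 0.461 to 1.03 CPM in the other pools. Mttp-IKO 3 stood apart in RNA makeup, with a small RNA share of 0.290% of reads where the others had 1.92% to 3.51%, and 1.697% on protein-coding genes of 300 to 1000 nt against 3.62% to 3.84%. Results were therefore also computed without either pool and without both.

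Of the 33 genes, 6 passed an adjusted p of 0.05 in edgeR's quasi-likelihood test with Benjamini-Hochberg adjustment over 17287 genes. Fga, Fgg and Thbd were higher in Mttp-IKO liver, and Plau, Plat and Procr were lower. Over all genes tested 4.01% passed, 0.92% as higher and 3.09% as lower. Taken over the list, 19 genes had an unadjusted p under 0.05 (23.0% of all genes tested did), and 27 did not pass the adjusted test. Control and Mttp-IKO pools were fully separated in 21 genes, against 31.0% of all genes tested. In 16 of these every Mttp-IKO pool lay above every control pool and in 5 every one lay below, against 14.5% and 16.5% of all genes tested. Both the number and the identity of the calls depended on single pools: 0 of the 33 were called by edgeR when control 1, control 3, Mttp-IKO 1 or Mttp-IKO 2 was left out (12 to 17 had an unadjusted p under 0.05), 4 without control 2 and 8 without Mttp-IKO 3. Over all genes tested, 0% to 0.307% were called in the fits with 0 calls, 5.02% without control 2 and 4.84% without Mttp-IKO 3. Without both control 2 and Mttp-IKO 3, an alternative added after seeing the data, 15 were called, beside 12.3% of all genes tested. Scaling by total counts, which moved the median log2 fold change of all genes from 0.0057 to -0.17, gave 0 higher and 3 lower calls in place of 3 and 3, and DESeq2 gave 9 higher and 4 lower. Of all genes tested, total count scaling called 5.89% and DESeq2 11.5%.

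**Figure D1:**
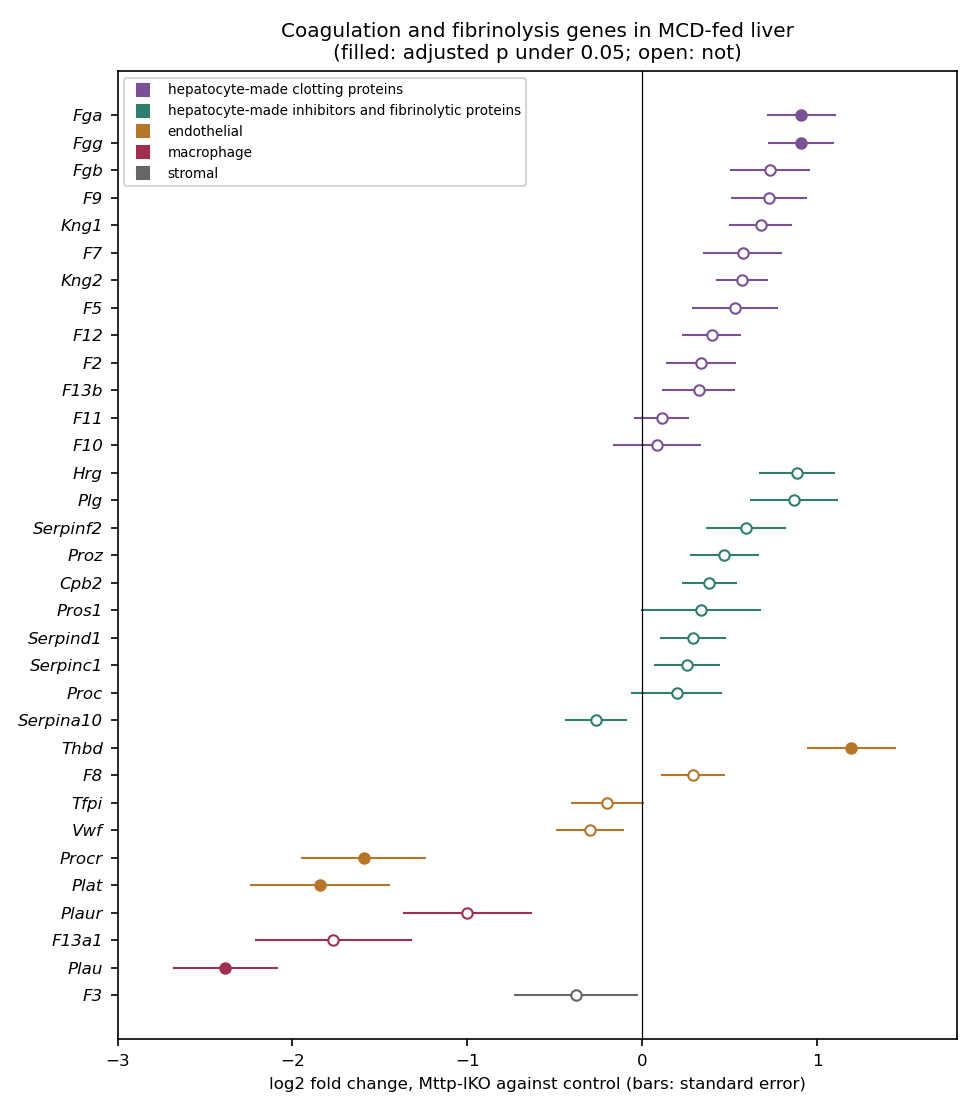
Log2 fold change of each of the 33 genes, Mttp-IKO against control (x axis), with its standard error as a bar, grouped and colored by source, with filled points for an adjusted p under 0.05. Hepatocyte-made genes lie to the right of 0 except Serpina10, and of the endothelial, macrophage and stromal genes only Thbd and F8 do.

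The hepatocyte-made genes and the others lay on different sides of 0. Of the 23 hepatocyte-made genes, 22 had a log2 fold change above 0, against 50.5% of all genes tested, with a median of 0.47 beside 0.0057 over all genes. Of the 23, 2 were called (8.70%, against 4.01% of all genes tested), both fibrinogen chains. In 15 every Mttp-IKO pool lay above every control pool (65.2%, against 14.5%). Of the 10 endothelial, macrophage and stromal genes, 8 had a log2 fold change below 0, with a median of -0.69. In this set 4 were called (40%, against 4.01% of all genes tested), 1 as higher and 3 as lower. Relative to the median of all genes, the medians were 0.46 and -0.69, and under scaling by total counts they were 0.47 and -0.70. Fewer cells of a type and less RNA per cell cannot be told apart in bulk tissue. Of 8 hepatocyte markers, 6 had a log2 fold change above 0 and 0 were called, against 50.5% and 4.01% of all genes tested. The other 2 were Ttr (-0.55), lower in every Mttp-IKO pool, and Cyp3a11 (-0.0016). The part of hepatocyte markers in these values was not tested.

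The mean levels of the 2 sets did not meet. Per length, the control means of the hepatocyte-made genes ran from 10.98 to 1102 CPM per 1000 nt of exon (RPKM) with a median of 154, and those of the other 10 from 0.808 to 7.82 with a median of 2.77. On means, all 23 hepatocyte-made genes stood above all 10 others in both genotypes. The order of control means was led by the 3 fibrinogen chains, Fgb at 1102 ± 107, Fgg at 640.3 ± 63.5 and Fga at 521 ± 52.7 RPKM (SD, n = 3 pools). Serpinc1 (antithrombin) followed at 489.9 ± 65.2, Plg (plasminogen) at 409.8 ± 109 and Kng1 (a kininogen) at 378 ± 3.19 RPKM. The control pools of Fgb, Fgg and Fga did not overlap one another, whereas each of Fga, Serpinc1 and Plg overlapped the next gene in this order. At the lower end, F13a1 was at 0.808 ± 0.270 and Tfpi at 1.197 ± 0.122 RPKM. The share of all reads that fell on the 33 genes was 1.35% to 1.52% in control pools and 1.93% to 1.99% in Mttp-IKO pools, and the fibrinogen chains alone took 0.427% to 0.540% and 0.725% to 0.790%.

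**Figure D2:**
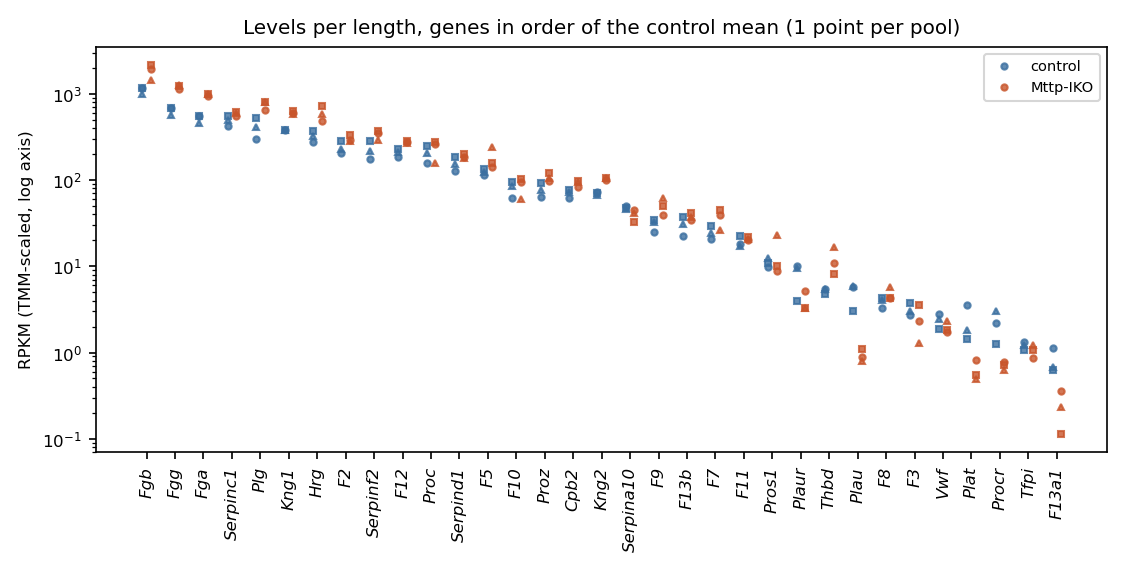
Level per length of each gene in each pool (RPKM, log axis), 1 point per pool, control and Mttp-IKO pools in separate colors, genes ordered by control mean. The fibrinogen chains lead at 521 to 1102 RPKM in control liver, and the endothelial, macrophage and stromal genes fill the 10 lowest places.

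Fibrinogen is a dimer of 3 chains, alpha, beta and gamma, encoded by Fga, Fgb and Fgg in 1 cluster on chromosome 3 (GRCm38). Their upstream sequence is shown because the 3 genes are neighbors whose levels kept nearly the same ratios in 5 of the 6 pools. The lines give the 250 bases before each RefSeq start (GRCm38.p6), 5′ to 3′ on the gene's strand, for Fga at chr3:83025903-83026152 (+), Fgb at chr3:83049864-83050113 (-) and Fgg at chr3:83007474-83007723 (+). Capitals mark matches to any of 4 motifs searched on both strands.
Fga: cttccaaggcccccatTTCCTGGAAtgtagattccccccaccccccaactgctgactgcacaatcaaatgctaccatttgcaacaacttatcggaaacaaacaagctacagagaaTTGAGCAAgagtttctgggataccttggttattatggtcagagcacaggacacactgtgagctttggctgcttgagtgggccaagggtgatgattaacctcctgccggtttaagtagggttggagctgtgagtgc
Fgb: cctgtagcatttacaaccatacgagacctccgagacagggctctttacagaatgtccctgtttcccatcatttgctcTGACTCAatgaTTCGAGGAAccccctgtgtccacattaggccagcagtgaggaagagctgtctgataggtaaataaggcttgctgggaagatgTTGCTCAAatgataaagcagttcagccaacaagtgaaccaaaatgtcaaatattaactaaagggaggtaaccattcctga
Fgg: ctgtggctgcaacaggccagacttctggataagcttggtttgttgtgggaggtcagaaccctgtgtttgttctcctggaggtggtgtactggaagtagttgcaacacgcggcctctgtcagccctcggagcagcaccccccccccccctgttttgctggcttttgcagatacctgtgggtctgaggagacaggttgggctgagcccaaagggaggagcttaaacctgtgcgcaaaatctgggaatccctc
The 4 motifs were the HNF4 core AAAGTCC, the C/EBP motif TTGCNNAA, the STAT motif TTCNNNGAA and the AP-1 motif TGANTCA. Fga held TTGAGCAA (C/EBP, other strand) 135 to 128 bases before the start and TTCCTGGAA (STAT) at 234 to 226. Fgb held the same 2 kinds of match, TTGCTCAA at 80 to 73 and TTCGAGGAA at 162 to 154, and also TGACTCA (AP-1) at 173 to 167. The Fgg window held none of the 4 strings. Of all 32851 promoter windows of the RefSeq table, cut to the same length, 3.58% held the HNF4 string, 9.56% the C/EBP string, 7.02% the STAT string and 6.75% the AP-1 string. Among the 27 windows of the 25 coagulation genes matched, 1, 8, 4 and 6 held them in that order. The RefSeq start of Fgb lies 60 bases and that of Fgg 135 bases before the start in the files, and that of Fga coincides with it.

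Fga (chr3:83026153-83033615) was at 1857, 1849 and 1547 CPM in the control pools and at 3167, 3349.8 and 3351 CPM in the Mttp-IKO pools. All Mttp-IKO pools lay above all control pools, and the fold was 1.88, a log2 fold change of 0.91 with a standard error (SE) of 0.196 and an adjusted p of 0.0463. Fgg (chr3:83007859-83015053) was at 1057, 1060.4 and 887 CPM and at 1749, 1910.1 and 1984 CPM. It too rose 1.88-fold without overlap (log2 fold change 0.91, SE 0.188, adjusted p = 0.0423). Fgb (chr3:83042247-83049803) was at 1934, 1892 and 1611 CPM and at 3179, 3493 and 2346 CPM. Its pools did not overlap either, but Mttp-IKO 3 was well under the other Mttp-IKO pools, and with a log2 fold change of 0.73 (SE 0.227, adjusted p = 0.112) it did not pass. Without Mttp-IKO 3 all 3 chains were called, Fgb with an adjusted p of 0.0309. Fga and Fgg kept their call in only 1 of the 6 fits that left out a pool, the one without Mttp-IKO 3, with adjusted p up to 0.243 and 0.224 in the others.

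The chains' ratios within a pool do not depend on scaling. Per length, Fga to Fgb was 0.470, 0.478 and 0.470 in controls and 0.488, 0.469 and 0.699 in Mttp-IKO 1, 2 and 3. The ratio of Fgg to Fgb was 0.575, 0.589 and 0.579 in controls and 0.578, 0.575 and 0.889 in Mttp-IKO pools. In both ratios 5 pools were nearly alike and Mttp-IKO 3 stood above them. On the log2 scale the genotypes differed by 0.20 in each (exact two-sided permutation test, p = 0.4 and p = 0.8, where the smallest p that 3 against 3 pools can give is 0.1). Without Mttp-IKO 3 the differences were 0.017 and -0.011. Fga to Fgg, which leaves Fgb out, was 0.818, 0.812 and 0.812 in controls and 0.844, 0.817 and 0.787 in Mttp-IKO pools, a log2 difference of 0.0021 (exact permutation p = 1). Mttp-IKO 3 is the pool with the low share of reads on small RNAs and short mRNAs, and the part of RNA makeup in its ratio was not tested.

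**Figure D3:**
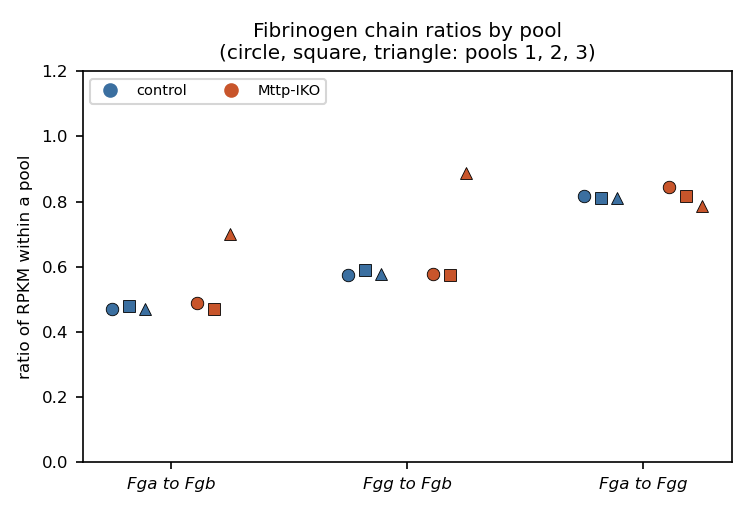
Ratios of fibrinogen chains per length in each pool (linear axis from 0), by genotype. In Mttp-IKO 3 the ratios to Fgb were 0.699 and 0.889, above the 0.469 to 0.589 of the other 5 pools, while Fga to Fgg ran from 0.787 to 0.844 in all 6.

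Among the contact system genes, which start the surface-driven branch of the cascade, 0 of 4 were called, where 4.01% of all genes tested were. Kng1 (chr16:23057865-23082068), which encodes a kininogen, the precursor of bradykinin, was at 1184, 1204 and 1191 CPM in controls and 1894, 2000.3 and 1827 CPM in Mttp-IKO pools. The neighboring Kng2 (chr16:22985854-23029101), also a kininogen gene, was at 179.9, 176 and 167 CPM and 248, 261 and 267 CPM. Neither overlapped between genotypes, with log2 fold changes of 0.68 (SE 0.177, adjusted p = 0.0746) and 0.57 (SE 0.149, adjusted p = 0.0739). Both passed without Mttp-IKO 3, without Mttp-IKO 3 and control 2 together, with DESeq2 and with the trend with gene length removed. Without control 2 alone neither passed edgeR's test (adjusted p = 0.167 and 0.159). Because Kng1 and Kng2 are paralogs and only uniquely placed reads were counted, their levels are less certain than those of single-copy genes. F12, the factor XII that surfaces activate, was at 365, 451 and 417 CPM and 538, 560.2 and 526 CPM, without overlap (log2 fold change 0.40, adjusted p = 0.210). F11, the protease that factor XII activates, ran from 38.6 to 50.9 CPM in controls and from 45.0 to 49.6 CPM in Mttp-IKO pools, with a log2 fold change of 0.11 that became -0.067 under scaling by total counts.

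The vitamin K-dependent genes F2, F7, F9, F10, Proc, Pros1 and Proz all had a log2 fold change above 0, with a median of 0.34. Of these, 0 of 7 were called (lowest adjusted p 0.101), where 4.01% of all genes tested were. F9, the protease that is lost in hemophilia B, was at 68.3, 93.6 and 89.2 CPM in controls and 108, 137 and 170.2 CPM in Mttp-IKO pools, without overlap (log2 fold change 0.73, SE 0.216, adjusted p = 0.101). F2, prothrombin, was at 944, 1288 and 1059 CPM and at 1331, 1522 and 1301 CPM. Its groups were separated by a narrow gap and the log2 fold change was 0.34 (adjusted p = 0.355). Proz, a cofactor of the inhibitor Serpina10, was at 151, 224 and 183 CPM and at 232, 287 and 254 CPM (log2 fold change 0.47, adjusted p = 0.201), again without overlap.

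In the other 4 of these genes the pools overlapped and Mttp-IKO 3 was unlike the other Mttp-IKO pools. F7, the partner of tissue factor, was at 73.4 and 83.4 CPM in Mttp-IKO 1 and 2 and at 49.4 CPM in Mttp-IKO 3, against 38.7 to 54.7 CPM in controls. F10, which with factor V cuts prothrombin, was at 257 and 279 CPM in Mttp-IKO 1 and 2 and 163 CPM in Mttp-IKO 3, against 171 to 259 CPM. Proc, the anticoagulant protein C, was at 407, 431 and 249 CPM in Mttp-IKO 1, 2 and 3, against 248 to 383 CPM. Pros1, the cofactor of protein C, went the other way, at 36.0 and 40.9 CPM in Mttp-IKO 1 and 2 and 93.1 CPM in Mttp-IKO 3, against 40.0 to 50.4 CPM. Its log2 fold change of 0.33 (adjusted p = 0.597) became -0.22 without Mttp-IKO 3, that of F10 (0.085) became -0.086 without control 1, -0.065 without Mttp-IKO 2 and -0.091 under scaling by total counts, and F7 (0.57, adjusted p = 0.183) was called without Mttp-IKO 3. F7, F10 and Proz are neighbors on chromosome 8 (chr8:13026034-13035809, chr8:13037308-13056676 and chr8:13060908-13075006), and of these only Proz kept Mttp-IKO 3 above the controls.

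The remaining clotting genes of hepatocytes were the cofactor F5 and the factor XIII subunit F13b. F5 was at 839.9, 1002 and 919.9 CPM in controls and 1039, 1179 and 1772 CPM in Mttp-IKO pools, without overlap, with its highest value in Mttp-IKO 3 (log2 fold change 0.53, SE 0.243, adjusted p = 0.240). It shares 262 exonic bases (3.53%) with another gene, the only such overlap among the 33. F13b, the carrier subunit of the fibrin cross-linking factor XIII, ran from 56.4 to 94.7 CPM and from 86.5 to 105 CPM and overlapped (log2 fold change 0.32, adjusted p = 0.391).

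**Figure D4:**
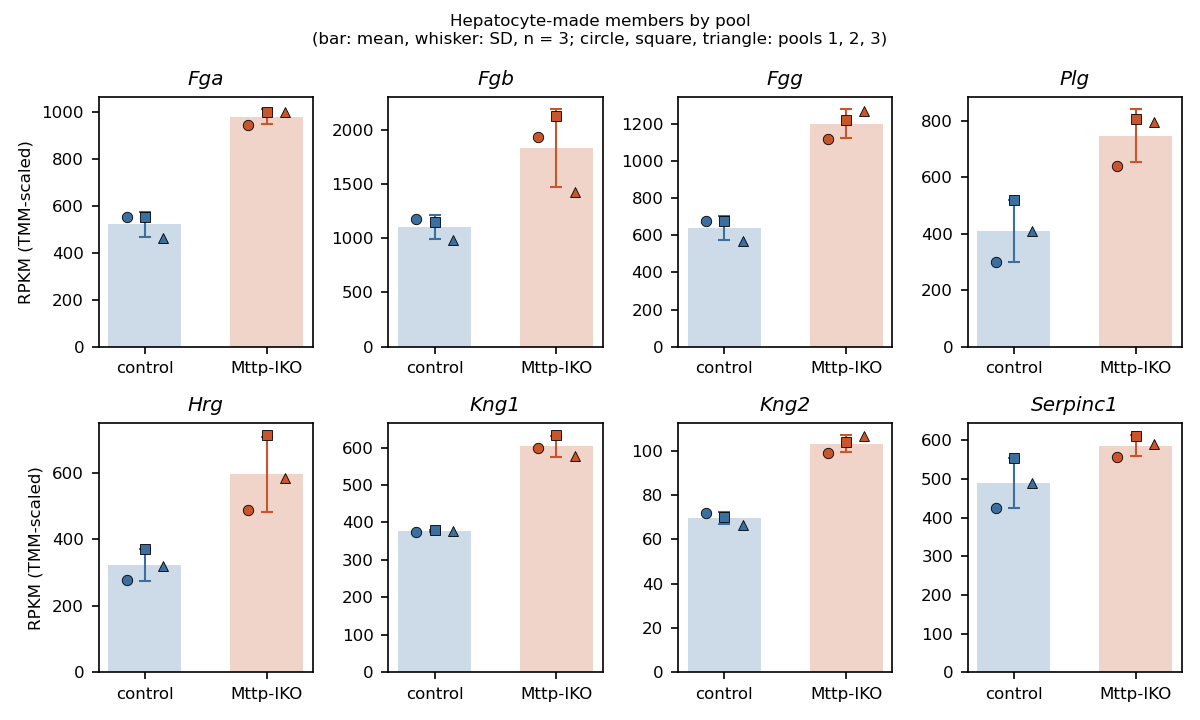
Level per length (RPKM, linear axes from 0) of 8 hepatocyte-made genes in each pool, with bars for the mean and whiskers for the SD of 3 pools. In each of the 8 every Mttp-IKO pool lies above every control pool, by the narrowest margin in Serpinc1, and Fgb of Mttp-IKO 3 lies below the other Mttp-IKO pools.

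Of the hepatocyte-made inhibitors and fibrinolytic proteins, 0 of 10 were called, where 4.01% of all genes tested were. Among them 9 had a log2 fold change above 0, against 50.5% of all genes tested. In 6 every Mttp-IKO pool lay above every control pool, against 14.5% of all genes tested. Plg encodes plasminogen and was at 829, 1428 and 1129.8 CPM in controls and 1763, 2222 and 2196 CPM in Mttp-IKO pools. The groups did not overlap, but control 1 was far below control 2, and the log2 fold change of 0.87 (SE 0.250) had an adjusted p of 0.0937. Hrg, the histidine-rich glycoprotein that binds plasminogen and heparin, was at 479.7, 642 and 557 CPM and 847, 1238 and 1015 CPM. Its log2 fold change of 0.88 (SE 0.217) missed the threshold with an adjusted p of 0.0645, the lowest of these 10, and it lies next to the kininogen genes (chr16:22951072-22961656). Serpinf2, the plasmin inhibitor alpha-2-antiplasmin, was at 402, 651 and 499.6 CPM and 820.0, 854 and 668 CPM (log2 fold change 0.59, adjusted p = 0.174). Cpb2, a carboxypeptidase that protects fibrin from plasmin, was at 91.9, 111 and 106 CPM and 123, 141 and 139.8 CPM (log2 fold change 0.38, adjusted p = 0.191). Both were without overlap, as was the plasminogen gene they oppose.

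The serpins that inhibit clotting proteases showed smaller values. Serpinc1, antithrombin, was at 916, 1197 and 1057 CPM in controls and 1201, 1319 and 1272 CPM in Mttp-IKO pools, with a log2 fold change of 0.26 (SE 0.189, adjusted p = 0.450). Its highest control pool and lowest Mttp-IKO pool were nearly level. Serpind1, heparin cofactor II, ran from 278 to 399 CPM and from 393 to 441 CPM and overlapped (log2 fold change 0.29, adjusted p = 0.396). Serpina10, which inhibits factor Xa with protein Z, was at 177, 164 and 162 CPM and 159, 113 and 146 CPM. It was the only hepatocyte-made gene of the list with a log2 fold change below 0, at -0.26 (SE 0.176, adjusted p = 0.405), although its pools did not overlap, and its cofactor gene Proz was at 0.47.

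Endothelial genes did not share a direction, with 1 called as higher, 2 called as lower and 3 not called. Over all genes tested, 0.92% were called as higher and 3.09% as lower. Thbd, thrombomodulin, which turns thrombin toward protein C activation, was at 20.3, 17.6 and 20.3 CPM in controls and 40.8, 30.5 and 62.1 CPM in Mttp-IKO pools. The control pools were tight and all Mttp-IKO pools lay above them, spread over a wide range, and Thbd (chr2:148404466-148408188) rose 2.29-fold (log2 fold change 1.19, SE 0.254, adjusted p = 0.0451). Procr, the endothelial receptor that presents protein C to thrombomodulin, was at 4.46, 2.52 and 6.09 CPM and 1.58, 1.47 and 1.26 CPM. It was 3.02-fold lower (chr2:155751117-155755471, log2 fold change -1.59, SE 0.356), with an adjusted p of 0.04998, just under the threshold. These 2 partners of 1 pathway thus stood on opposite sides.

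Plat, the tissue-type plasminogen activator, was at 8.98, 3.60 and 4.56 CPM in controls and 2.10, 1.41 and 1.26 CPM in Mttp-IKO pools. It fell without overlap (chr8:22757744-22782847, 3.59-fold lower, log2 fold change -1.84, SE 0.400, adjusted p = 0.0476), and control 1 was well above the other controls. When single pools were left out, Thbd was called in 1 of 6 fits (without Mttp-IKO 3), Procr and Plat each in 1 (without control 2), with adjusted p up to 0.163, 0.190 and 0.169. Vwf, von Willebrand factor, ran from 30.5 to 45.0 CPM and from 27.9 to 36.9 CPM. F8, the cofactor lost in hemophilia A, ran from 32.7 to 42.9 CPM and from 42.1 to 56.9 CPM, and Tfpi, the inhibitor of the tissue factor complex, from 5.82 to 7.14 CPM and from 4.67 to 6.63 CPM. These 3 overlapped, with log2 fold changes of -0.30, 0.29 and -0.20 (adjusted p = 0.392, 0.375 and 0.603). Over the same pools, 7 endothelial markers summed to 407 to 464 CPM in control and 402 to 454 CPM in Mttp-IKO liver, with 0 of 7 called.

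All 3 macrophage genes had a log2 fold change below 0, and 1 was called, as lower. Over all genes tested, 50.5% had a log2 fold change above 0 and 3.09% were called as lower. Plau, the urokinase-type plasminogen activator, was at 13.4, 7.15 and 13.7 CPM in controls and 2.10, 2.57 and 1.89 CPM in Mttp-IKO pools. The lowest control, control 2, was still above every Mttp-IKO pool, and Plau (chr14:20836662-20843388) fell 5.22-fold (log2 fold change -2.38, SE 0.301, adjusted p = 0.0166). Its log2 fold change was -2.65 to -2.26 with single pools left out, and 2 of these 6 fits called it, those without control 2 and without Mttp-IKO 3, with adjusted p up to 0.0914 in the others. F13a1, the catalytic subunit of factor XIII, was at 4.39, 2.44 and 2.69 CPM and 1.42, 0.446 and 0.923 CPM, without overlap (log2 fold change -1.77, SE 0.450, adjusted p = 0.0709). Plaur, the cell surface receptor of urokinase, was at 13.9, 5.57 and 13.2 CPM and 7.25, 4.53 and 4.57 CPM. Control 2 lay below Mttp-IKO 1, so the groups overlapped, and the log2 fold change of -0.999 (SE 0.367, adjusted p = 0.159) was not called, but without control 2 it was, with an adjusted p of 0.0404.

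Control 2, the pool with the most striated muscle RNA, was the lowest control for Plau, Plaur, F13a1, Plat and Procr. Of the recruited macrophage markers, 6 of 6 were lower in every Mttp-IKO pool, against 16.5% of all genes tested. Of these 6 markers, 5 were called as lower, against 3.09% of all genes tested. They summed to 656, 218 and 703 CPM in control 1, 2 and 3 and to 42.3, 123 and 118 CPM in Mttp-IKO 1, 2 and 3. In Mttp-IKO pools most of this sum was Gpnmb, at 30.8, 104 and 105 CPM. Ccr2, Itgax, Gpnmb and Ly6c2 were lowest in Mttp-IKO 1, and Cx3cr1 and Trem2 in Mttp-IKO 3. Among Mttp-IKO pools Plaur, F13a1, Plat and Procr were highest in Mttp-IKO 1, and Plau was highest in Mttp-IKO 2. Stellate cell and fibroblast markers also moved, with 4 of 7 called as lower and a sum of 814 to 1539 CPM against 470 to 552 CPM. Kupffer cell markers summed to 320 to 490 CPM and 244 to 583 CPM, with 3 above 0 and 3 below. Of these 6, Timd4 was called as higher, against 0.92% of all genes tested. Adgre1 was lower in every Mttp-IKO pool but was not called (log2 fold change -0.98, adjusted p = 0.0895). The part of these cell types in the lower values was not tested. F3, tissue factor, the membrane protein that starts coagulation with factor VII, was at 5.11, 6.96 and 5.62 CPM and 4.38, 6.76 and 2.43 CPM. It overlapped and was not called (log2 fold change -0.38, SE 0.353, adjusted p = 0.560), and it was at 0.044 without control 2 and Mttp-IKO 3. Platelets and megakaryocytes also express F5, F13a1 and Vwf, and their markers summed to 7.51 to 10.6 CPM and 7.89 to 11.5 CPM over 6 genes, with 0 of the 4 tested called.

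**Figure D5:**
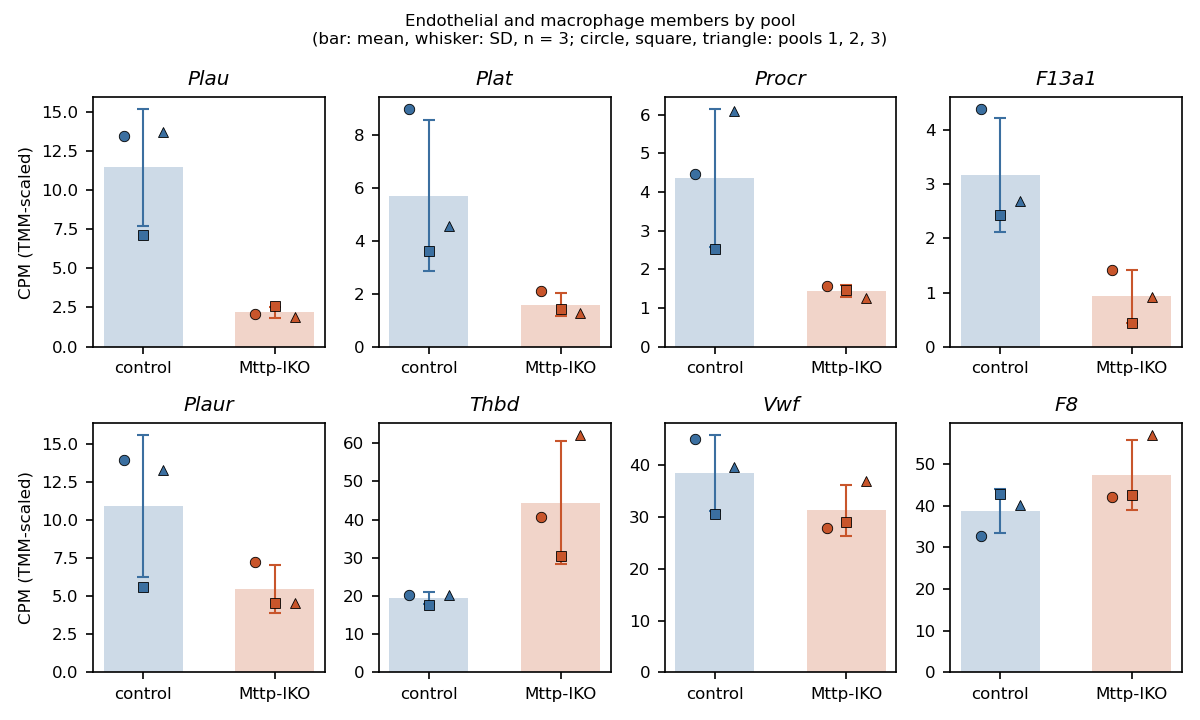
Level (TMM-scaled CPM, linear axes from 0) of 8 endothelial or macrophage genes in each pool, with bars for the mean and whiskers for the SD of 3 pools. Plau, Plat, Procr and F13a1 are lower in every Mttp-IKO pool, Thbd is higher in every one, and Plaur, Vwf and F8 overlap.

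The wider pathway was read from a list of 28 further genes, including receptors, the vitamin K cycle, transport factors and protease traps, of which 24 passed the filter on low counts. Of the 24, 1 was called (4.17%, against 4.01% of all genes tested), 11 had a log2 fold change above 0 and 13 below, and the median was -0.17. Pools were without overlap in 7 of the 24 (29.2%), against 31.0% of all genes tested. Both shares were near those of all genes. The called gene was Fgl1, a fibrinogen-related protein secreted by hepatocytes, at 117, 98.4 and 112 CPM in controls and 240.2, 235 and 181 CPM in Mttp-IKO pools. It rose without overlap, with a log2 fold change of 1.002 (SE 0.178, adjusted p = 0.0293). Among genes that did not overlap and were not called, Anxa2 and S100a10, which together form a cell surface receptor for plasminogen and its tissue-type activator, had log2 fold changes of -1.62 (adjusted p = 0.130) and -1.02 (adjusted p = 0.190), and in both Mttp-IKO 1 was nearest the controls, at 55.8 and 43.7 CPM. Hgfac, a hepatocyte protease related to factor XII, was at 106, 229 and 183 CPM and 337, 404 and 264 CPM, with a log2 fold change of 0.95 (adjusted p = 0.113). Adamts13, the protease that cleaves von Willebrand factor and is made by stellate cells, was at 13.4, 12.5 and 15.1 CPM and 7.99, 9.05 and 8.18 CPM, with a log2 fold change of -0.70 (adjusted p = 0.0564). F2rl2, a thrombin receptor, had a log2 fold change of 0.68 (adjusted p = 0.1001).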

How the data were processed

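Genes and gene lists were chosen with earlier results of these data known. The authors deposited for each pool the counts of 41388 genes, the reads that featureCounts 1.4.6-p5 assigned after STAR 2.5.1a alignment to GRCm38 with the Ensembl release 76 annotation, without normalization. The deposited CPM and RPKM columns follow from the counts and were not tested. The table of all pools, which holds 40481 of these genes, repeats 276 lines, which were dropped. Use of strand in counting is not given in the sources used here.

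Genes were kept by edgeR's filterByExpr (minimum count 10, minimum total 15), scaled by TMM (factors 0.898 to 1.11) and compared with edgeR 4.0.16 (glmQLFit, glmQLFTest, R 4.3.3), 3 pools against 3, with Benjamini-Hochberg adjustment over 17287 genes and a threshold of 0.05. CPM values in the text are TMM-scaled, RPKM divides them by exonic length in kilobases, and the SE is the log2 fold change over the root of the F statistic. On simulated counts for this comparison (16911 genes tested) the test called 26 of 100 genes changed 2-fold and 83 of 100 changed 4-fold. It also called 10 of 17087 genes simulated as unchanged, not all of which passed the filter. No 2 pools of the same genotype agreed within sampling noise.

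All 33 genes are accounted for, and values in every pool are given for those called, those without overlap and those at the highest levels. Of the other pathway genes, the called one and 5 more with the largest change and no overlap are named. One further listed gene is not reported here. Alternatives were other scalings, DESeq2 1.42.0, limma-voom 3.58.1, robust dispersion, other filters and thresholds, a block for the replicate number, gene length trends removed by loess (span 0.3) and fits without each pool. Promoter windows are RefSeq's. Figures were drawn with matplotlib 3.10.9.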

Additional observations from a re-analysis of the deposited data

How the results depend on the processing

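The number of the 33 genes called was 6 and lay within 1.5 times of that with other scalings except total counts, which called 3, and with robust dispersion, other filters and the length trend removed (9). DESeq2 called 13, limma-voom 3, thresholds of 0.1 and 0.01 on the adjusted p 11 and 0, an unadjusted p under 0.05 19, and fits without 1 pool 0 to 8, with 15 without control 2 and Mttp-IKO 3. The share of all genes tested that was called moved too, from 4.01% to 11.5% with DESeq2 and 2.48% with limma-voom. It was 0% to 5.02% without 1 pool and 12.3% without control 2 and Mttp-IKO 3. Replicate numbers occur in both genotypes, and correlations of the pools' deviations do not settle whether the numbers pair the pools. Same-numbered pools correlated at 0.139, 0.112 and 0.00698, and differently numbered pools at -0.125 to 0.0208. Mttp-IKO 3 correlated best with control 2 (0.0208). With the replicate number as a block 4 genes were called, 3 of them among the 6, and 10 with the length trend removed as well. Of the 24 other pathway genes, 1 was called, 2 with upper quartile or total count scaling, at least 1 CPM, protein-coding genes only, the replicate block or a threshold of 0.1, 3 with the block and length trend, 5 with DESeq2, 6 by unadjusted p, 0 at 0.01, 0 to 2 without 1 pool and 4 without control 2 and Mttp-IKO 3. The median log2 fold change of hepatocyte-made genes was 0.47, 0.29 with total counts and 0.32 to 0.56 without 1 pool, and that of the other 10 genes was -0.69, -0.87 with total counts, -0.90 to -0.64 without 1 pool and -0.90 without control 2 and Mttp-IKO 3. The Fga to Fgb ratio differed by 0.017 to 0.30 and Fgg to Fgb by -0.011 to 0.30 (log2) without 1 pool. Of 33 genes, 29 kept their direction in all 20 alternatives. The exceptions were F10 (-0.091 with total counts, -0.086 to 0.29 without 1 pool, 0.41 without control 2 and Mttp-IKO 3), F11 (-0.067 with total counts), Pros1 (-0.22 to 0.58 without 1 pool, -0.24 without both) and F3 (-0.78 to -0.080 without 1 pool, 0.044 without both). In simulated counts 26 of 100 genes changed 2-fold were called, and the hepatocyte-made genes had folds below that, so a miss does not show equal levels. The causes of these differences were not tested.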

Other observations

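Transcription factors known to act at liver-specific promoters were read beside the hepatocyte-made genes. Hnf4a was at 564, 686 and 600.4 CPM in controls and reached 868, 1203 and 1318 CPM in Mttp-IKO 1, 2 and 3 without overlap, but did not pass edgeR's test (log2 fold change 0.87, SE 0.217, adjusted p = 0.0664). Foxa2 was also without overlap and did not pass (log2 fold change 0.60, adjusted p = 0.0988). Cebpa, Cebpb and Onecut1 overlapped, and in each of them Mttp-IKO 3 was above the other Mttp-IKO pools, at 407, 623 and 147 CPM.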
